A study of Mus musculus with 12 samples.

Results

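Foxj1, Foxn4, Rfx2 and Rfx3 encode transcription factors of the ciliated cell programme, and their expression was followed in mouse airway cultures that carried an shRNA against Myb or a scrambled shRNA. The 4 genes were found by the gene symbol that the array's annotation gives each probe, which named 1 probe for each of them. The probes of 3 of the genes, Foxj1, Foxn4 and Rfx2, were detected on at least 3 arrays and entered the fit of 9381 genes, out of 20289 genes with a named probe, while the probe of Rfx3 was detected on no array. Primary tracheal epithelial cells of male C57BL/6J mice were cultured on Transwell membranes at an air-liquid interface (ALI), where basal progenitors form an epithelium with ciliated and secretory cells. All 12 cultures had been transduced with a lentivirus, and they formed 4 groups of 3 biological replicates: Myb shRNA at ALI day 9, scrambled control shRNA at ALI day 9, Myb shRNA at ALI day 3 and scrambled control shRNA at ALI day 3. Total RNA was hybridised to Illumina bead arrays. The labels give neither the animals' age, nor the share of cells transduced, nor whether cells were pooled from several mice.

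In textbook accounts, a multiciliated cell is specified when Notch signalling is low and the coregulators Gmnc and Mcidas act with E2F factors to start the programme. Myb takes part in this early step. Foxj1, a forkhead factor, drives the genes of the motile axoneme and is the usual marker of a cell committed to motile cilia. Foxn4, another forkhead factor, is known for retinal neurogenesis in mice and for multiciliated cells in Xenopus. Rfx2 and Rfx3 bind the X-box, a motif found before many ciliary genes, and serve both motile and primary cilia.

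Levels are given as log2 normalised intensity on each probe's own scale, so that a level is compared between groups but not between genes. Between 13247 and 15100 probes were detected per array, at a detection p-value under 0.01, and the lowest detected level lay between 5.37 and 5.69 depending on the array. Myb itself was not measured, since all 4 of its probes fell below the filter with a single detection between them over the arrays, so the knockdown is not checked here and groups are called by their labels. The arrays numbered 3 stood apart from those numbered 1 and 2, and values without them are given beside the main results they change. Fits without them keep 2 arrays per group and were added after the data were seen. Leaving out arrays that stand apart lowers the spread, so the p-values of these fits do not replace those of all arrays. The epithelial markers Cdh1, Krt8 and Krt18 were measured, and Epcam was below the filter. Of the markers listed for other cells, Col1a1, Col1a2 and Col3a1 of fibroblasts and Ptprc and Cd3e of leukocytes were below it too. Dcn, Sparc and Acta2 of fibroblasts and Cd68, Laptm5 and Lyz2 of leukocytes were detected on every array.

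Averaged over both days, Foxj1, Foxn4 and Rfx2 were all lower with Myb shRNA, by limma with Benjamini-Hochberg adjustment over all genes. The mean difference between Myb and scrambled shRNA was -0.90 ± 0.19 for Foxj1 (SE, adjusted p = 0.00233), -1.61 ± 0.18 for Foxn4 (adjusted p = 2.26e-05) and -0.83 ± 0.22 for Rfx2 (adjusted p = 0.0103). Of all genes tested, 31.4% passed in this contrast, and 15.4% were lower. The Foxn4 difference at day 9 was smaller than at day 3 by the test of the interaction, which Foxj1 and Rfx2 did not pass, and the genes were not tested against each other.

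**Figure D1:**
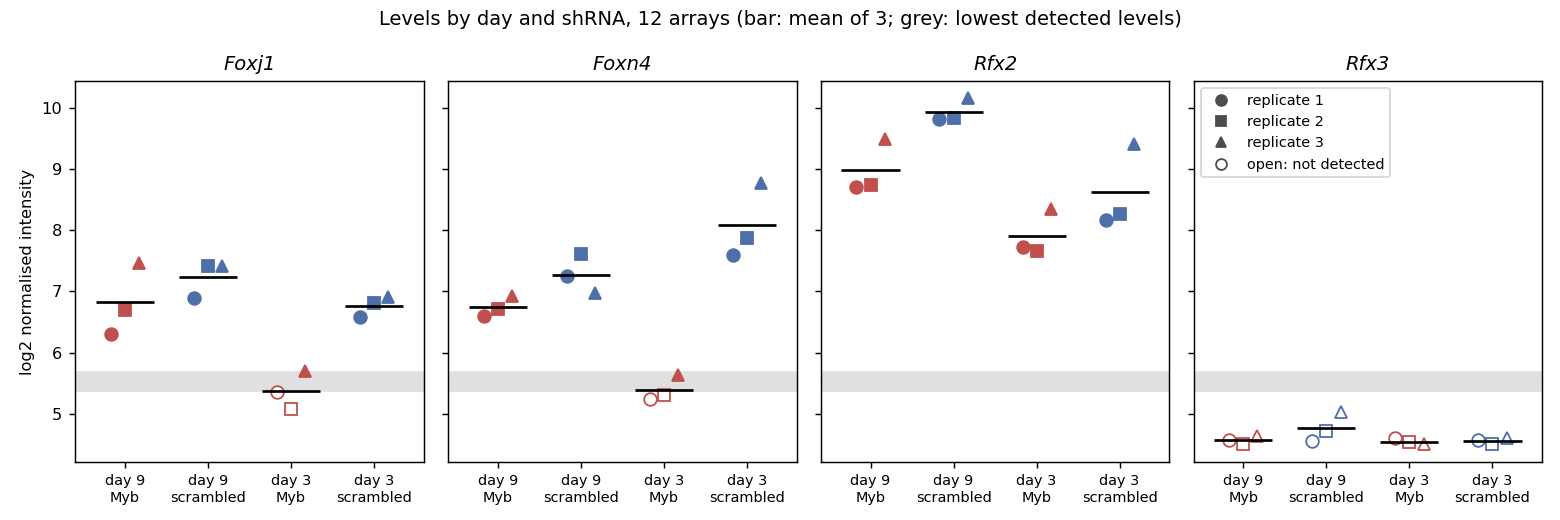
Log2 normalised intensity (vertical axis) of Foxj1, Foxn4, Rfx2 and Rfx3 on each of 12 arrays, by day and shRNA (horizontal axis). Symbols give the replicate number, open symbols are arrays on which the probe was not detected, bars are means of 3 and the grey band spans the lowest detected levels of the arrays, 5.37 to 5.69. Foxj1 and Foxn4 lie in or near the band in day 3 Myb shRNA cultures, Rfx2 lies well above it in every group and Rfx3 lies below it on all arrays.

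Foxj1 was lowest in day 3 Myb shRNA cultures. At day 3 its level was 5.37, 5.08 and 5.70 in Myb shRNA replicates 1 to 3, where only replicate 3 was detected, against 6.58, 6.82 and 6.91 in scrambled cultures. At day 9 it was 6.31, 6.70 and 7.46 in Myb shRNA cultures and 6.89, 7.42 and 7.41 in scrambled cultures. The groups were thus separate at day 3 and overlapped at day 9, where Myb shRNA replicate 3 was the highest of all 6 arrays.

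At day 3 Foxj1 was lower with Myb shRNA by limma, at 5.38 ± 0.31 against 6.77 ± 0.17 in scrambled cultures (SD, n = 3 each), a difference of -1.39 ± 0.26 (SE, adjusted p = 0.00207). Of the 3 measured genes 2, Foxj1 and Foxn4, passed at day 3, where 22.7% of all genes tested passed, 11.2% being lower, and 18.7% had lower Myb shRNA arrays that did not overlap the scrambled arrays. The size of the Foxj1 difference, 2.61-fold lower here, depends on the offset added before the logarithm: it was -0.91 with an offset of 50 and -0.89 in the log2 table deposited by the authors, and it passed in both. At day 9 the Foxj1 difference was -0.42 ± 0.26 (adjusted p = 0.337, interval -0.99 to 0.15) and did not pass. It was -0.74 (adjusted p = 0.0474) without day 9 Myb shRNA replicate 3 and -0.65 (adjusted p = 0.0306) without the 4 arrays numbered 3. The change in the difference between the days was 0.97 ± 0.37 and did not pass (adjusted p = 0.248).

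Between the days, Foxj1 rose in Myb shRNA cultures by 1.44 ± 0.26 (adjusted p = 0.00187) and was higher in all 3 arrays of day 9 than in any of day 3, as for 17% of all genes tested. Only 1 of the 3 day 3 arrays detected it, so the size of this rise depends on the offset too. In scrambled cultures the difference between day 9 and day 3 was 0.47 ± 0.26 (adjusted p = 0.239), with an interval of -0.09 to 1.04. In order, day 3 Myb shRNA came lowest, and day 3 scrambled and day 9 Myb shRNA were 0.05 apart, less than the spread of either group. Day 9 scrambled was highest, at 7.24 ± 0.31.

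Foxn4, like Foxj1, had its lowest levels in day 3 Myb shRNA cultures. At day 3 its level was 5.25, 5.31 and 5.63 in Myb shRNA replicates 1 to 3, of which only replicate 3 was detected, against 7.60, 7.87 and 8.77 in scrambled cultures. At day 9 it was 6.60, 6.71 and 6.93 in Myb shRNA cultures against 7.25, 7.61 and 6.97 in scrambled cultures. No Myb shRNA array reached the lowest scrambled array of its day, though at day 9 the replicates numbered 3 were nearly equal.

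The promoter of Foxn4 is shown because Foxn4 had the largest shRNA difference of the 3 measured genes at day 3 and its window holds letters of a MYB motif. RefSeq windows of 250 bases before to 50 bases after the gene's start (build GRCm38.p6) matched 3 of the 4 genes by symbol, and the part before the start is printed. Capitals mark a match to the MYB core AACGG, searched on both strands, and positions count from the start, which is 1, with -1 before it.
Foxn4, chr5:114273762-114274011, minus strand: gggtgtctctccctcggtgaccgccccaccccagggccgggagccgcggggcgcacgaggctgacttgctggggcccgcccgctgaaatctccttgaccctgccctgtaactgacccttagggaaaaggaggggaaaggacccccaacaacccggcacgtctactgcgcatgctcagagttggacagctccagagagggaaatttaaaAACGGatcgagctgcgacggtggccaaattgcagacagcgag

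The window held 1 MYB core, from -42 to -38. Of 32851 such windows, 17.4% held at least 1. A match of letters is not a bound site, and binding was not measured here.

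At day 3 Foxn4 fell with Myb shRNA by 2.68 on the log2 scale, a 6.42-fold lower level, to 5.40 ± 0.20 against 8.08 ± 0.62 in scrambled cultures (SD, n = 3 each, adjusted p = 1.02e-05 by limma). With only 1 of 3 Myb shRNA arrays above detection, this size too depends on the offset: it was -2.01 with an offset of 50 and -1.94 in the log2 table deposited by the authors, and it passed in both. In the order of p-values it was gene 91 of the 9381 tested. Its 95% interval of -3.24 to -2.12 lay below that of Foxj1, -1.95 to -0.82, but the difference between both genes was not tested. At day 9 the difference was -0.53 ± 0.26 (adjusted p = 0.207, interval -1.09 to 0.03). Of all genes, 16.9% were lower at day 9 with groups that did not overlap, as Foxn4 was. Without the arrays numbered 3 the difference was -0.77 and passed (adjusted p = 0.00252).

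The Foxn4 difference at day 9 was less negative than that at day 3 by 2.15 ± 0.37 (adjusted p = 0.0112, limma's test of the interaction). The size of this change, like that of the day 3 difference, depends on the offset. Foxn4 was the only one of the 3 measured genes to pass, and 1.65% of all genes tested did so, 0.746% with a positive value. The interaction lay between 1.81 and 2.40 when single arrays were left out and passed each time, with adjusted p from 0.00626 to 0.043.

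Between the days Foxn4 passed with opposite signs in the arms, though in scrambled cultures the size came from 1 replicate number. In Myb shRNA cultures it rose by 1.35 ± 0.26 (adjusted p = 0.00268), and the rise was 1.34, 1.40 and 1.30 between arrays of the same number. The size of this rise depends on the offset too. In the log2 table deposited by the authors, Myb shRNA levels were 6.26, 6.30 and 6.49 at day 3 and 7.10, 7.18 and 7.34 at day 9. In scrambled cultures it differed by -0.81 ± 0.26 (adjusted p = 0.0488), and the groups overlapped. The scrambled replicates numbered 3 differed by -1.80 while those numbered 1 and 2 differed by -0.35 and -0.27. Without the arrays numbered 3 it was -0.31 (adjusted p = 0.156). It was lost in 9 of the 12 fits that left out a single array, among them those without day 3 scrambled replicate 3 (-0.46, adjusted p = 0.103) and day 9 scrambled replicate 3 (-0.66, adjusted p = 0.197). In order, day 3 Myb shRNA came lowest, then day 9 Myb shRNA and day 9 scrambled, 0.53 apart without overlap, and day 3 scrambled highest, overlapping day 9 scrambled.

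Rfx2, the best detected of the 4, was found on all 12 arrays. At day 3 its level was 7.72, 7.66 and 8.35 in Myb shRNA cultures against 8.17, 8.27 and 9.41 in scrambled cultures. At day 9 it was 8.71, 8.74 and 9.49 in Myb shRNA cultures against 9.81, 9.83 and 10.15 in scrambled cultures. The replicate numbered 3 was highest in each of the 4 groups, as for 13.3% of all genes tested, and the groups overlapped at day 3, where Myb shRNA replicate 3 lay above scrambled replicates 1 and 2, but not at day 9.

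The promoter of Rfx2 is shown because it holds several MYB cores and an X-box, the motif that RFX factors themselves bind. Capitals mark the MYB core, here on the opposite strand and so read CCGTT, and the X-box, searched on both strands as GTNNCCNGNAAC, GTNNCCNNGNAAC, GTNNCCNNNGNAAC or GTNNCCNNNNGNAAC, where N is any base.
Rfx2, chr17:56831009-56831258, minus strand: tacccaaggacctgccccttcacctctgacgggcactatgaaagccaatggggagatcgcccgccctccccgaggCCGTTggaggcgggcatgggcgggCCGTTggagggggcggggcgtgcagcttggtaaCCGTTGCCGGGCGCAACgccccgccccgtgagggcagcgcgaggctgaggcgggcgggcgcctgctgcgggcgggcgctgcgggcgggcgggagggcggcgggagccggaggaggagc

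The Rfx2 window held 3 MYB cores, starting at -175, -151 and -118, and 1 X-box, GTTGCCGGGCGCAAC, from -116 to -102, which begins inside the last core. Of all windows, 0.265% held 3 or more MYB cores, 5.25% an X-box by this definition and 1.39% both kinds. The X-box arm GTTGCC, in 12.5% of all windows, lay at its start. The Rfx3 window held MYB cores starting at -236 and at 30, past the start, and the arm GTTGCC at 32, overlapping the second core, but no full X-box. A forkhead motif, TGTTTAC, was in none of the 3 windows and in 3.65% of all.

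Between the shRNAs Rfx2 differed by -0.71 ± 0.31 at day 3, with adjusted p = 0.114. The day 9 difference was -0.95 ± 0.31, with adjusted p = 0.0507. With the replicate number as a block, 3 of the 3 genes passed at day 3, Rfx2 among them (adjusted p = 0.0013), where 36.2% of all genes did. Rfx2 alone of the 3 passed at day 9 with the block (adjusted p = 0.000159), where 24.8% of all genes did. All 3 same-numbered pairs were lower with Myb shRNA at each day, by -0.45, -0.61 and -1.06 at day 3 and by -1.10, -1.10 and -0.66 at day 9. Leaving out the arrays numbered 3, a choice made after the data were seen, gave -0.53 for day 3 (adjusted p = 0.000874). It gave -1.10 for day 9 (adjusted p = 1.06e-06). The SE was 0.10 at each day in that fit, against 0.31 with all arrays, so these p-values do not replace the main ones. Without day 3 scrambled replicate 3 alone, the day 3 difference was -0.31 (adjusted p = 0.347). None of the 3 measured genes passed at day 9 in the limma fit without the block, where 16.1% of all genes tested did, 9.48% being lower. At an unadjusted p under 0.05, 1 of the 3 did so, Rfx2, as did at least 2545 of all 9381 genes.

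Rfx2 rose between the days in both arms, by 1.07 ± 0.31 in Myb shRNA cultures (adjusted p = 0.0277) and by 1.32 ± 0.31 in scrambled cultures (adjusted p = 0.0102). The first call was lost without day 9 Myb shRNA replicate 3 (0.82, adjusted p = 0.115), and also without day 3 Myb shRNA replicate 1 or 2. The second was lost without day 3 scrambled replicate 1 or 2 or day 9 scrambled replicate 3. In Myb shRNA cultures 3 of the 3 measured genes rose, where 16.7% of all genes passed and 9.26% rose. In scrambled cultures Rfx2 passed as higher and Foxn4 as lower, where 17.1% passed, 9.55% being higher and 7.52% lower. The Foxn4 call was lost without the arrays numbered 3 (-0.31, adjusted p = 0.156). The interaction for Rfx2 was -0.24 ± 0.43 (adjusted p = 0.834), with an interval of -1.18 to 0.69. It was -0.57 ± 0.15 without the arrays numbered 3 and passed (adjusted p = 0.018). The groups ranked from day 3 Myb shRNA over day 3 scrambled and day 9 Myb shRNA to day 9 scrambled. The middle groups were 0.36 apart, less than the SD of either.

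**Figure D2:**
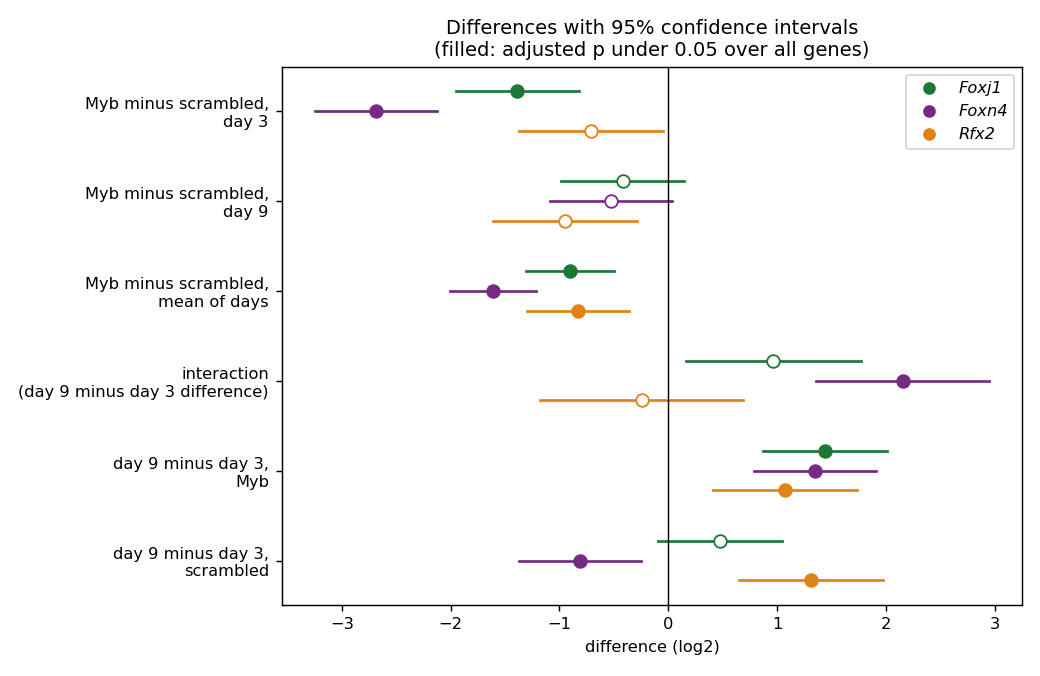
Differences on the log2 scale (horizontal axis) of Foxj1, Foxn4 and Rfx2 in 6 contrasts (vertical axis), with 95% confidence intervals from limma. Filled points have an adjusted p under 0.05 over all genes tested. The means over both days are filled and negative for all 3 genes, and in the interaction only the point of Foxn4, at 2.15, is filled.

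**Figure D3:**
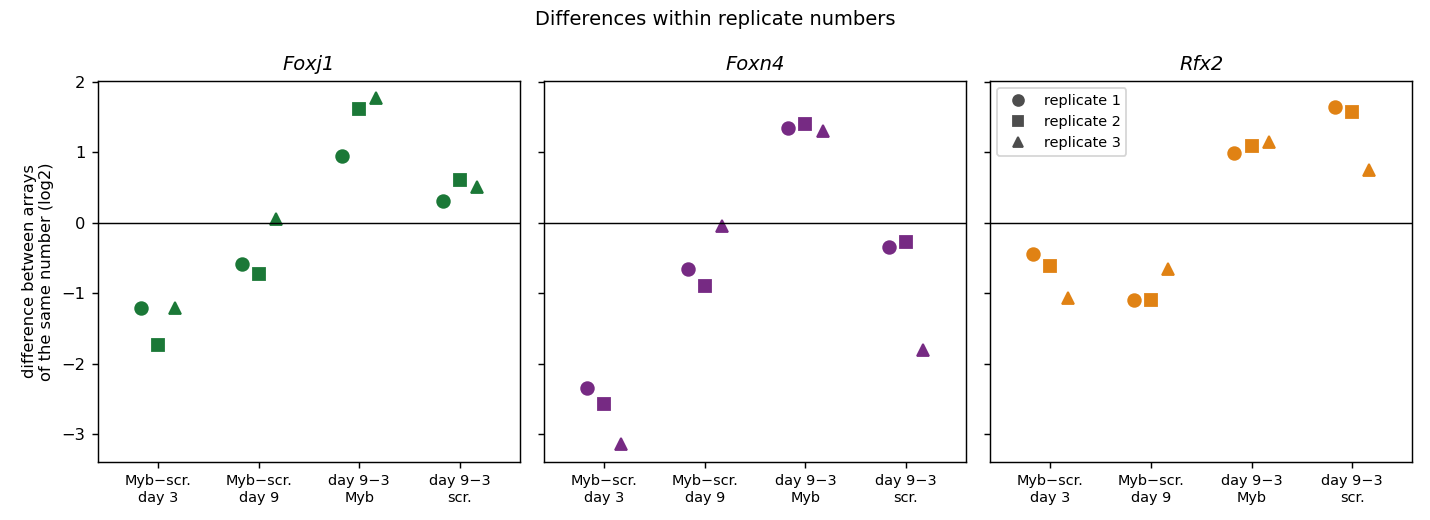
Differences on the log2 scale (vertical axis) between arrays of the same replicate number, for the shRNAs at each day and for the days in each arm (horizontal axis). Each symbol is 1 pair. The pair numbered 3 differs from the others for Foxj1 and Foxn4 between the shRNAs at day 9 (0.05 and -0.04) and for Foxn4 between the days in scrambled cultures (-1.80).

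Rfx3 gave no measurable level. Its signal after the scanner software's background subtraction lay between -16.4 and 15.1 over the 12 arrays, and the lowest detection p-value was 0.127. In a fit of all 45281 probes its differences were -0.01 at day 3 and -0.20 at day 9 (adjusted p = 0.974 and 0.33), both among values at background, so no fold change is given. A further probe that an updated symbol assigns to Rfx2 was also detected on none of the 12 arrays.

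In these bulk samples, fewer ciliated cells and less RNA per cell cannot be told apart. Summed levels of marker lists differed between the shRNAs as well. In each sum the brightest probes weigh most. The 7 ciliated markers other than Foxj1, all measured, had a summed normalised intensity of 8466 to 8994 in Myb shRNA and 18673 to 29467 in scrambled cultures at day 3. At day 9 the same sum was 17758 to 24907 in Myb shRNA and 42597 to 53462 in scrambled cultures. Day 9 Myb shRNA thus overlapped day 3 scrambled in this sum, as it did in the level of Foxj1.

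Basal progenitor markers lay the other way. All 10 were measured and summed to 34737 to 44717 in Myb shRNA and 25110 to 32847 in scrambled cultures at day 3, and to 29752 to 31405 in Myb shRNA and 19389 to 21795 in scrambled cultures at day 9. The 8 club cell markers, all measured, summed to 62599 to 72870 in Myb shRNA and 73502 to 88106 in scrambled cultures at day 3, and to 85289 to 89798 in Myb shRNA and 99315 to 105928 in scrambled cultures at day 9. Cyp2f2 weighed most, at 15.46 in Myb shRNA and 15.34 in scrambled cultures at day 3 and 15.44 in both at day 9, with an SD of 0. By gene, 6 of the 8 were lower at day 3 and 5 at day 9, where 11.2% and 9.48% of all genes were. Bpifa1 was higher at day 3, by 0.84, and none of the 8 was higher at day 9. Of 8 leukocyte markers only Cd68, Laptm5 and Lyz2 were measured, with sums of 1584 to 2754 in Myb shRNA and 5842 to 10050 in scrambled cultures at day 3 and of 4431 to 5195 in Myb shRNA and 10966 to 12964 in scrambled cultures at day 9. Lyz2 made up most of these sums and differed by -1.80 at day 3 and -1.31 at day 9. Cd68 differed by -0.60 and -0.13 and Laptm5 by -0.34 and -0.24 at the same days. Of 8 fibroblast markers only Dcn, Sparc and Acta2 were measured, with sums of 4046 to 4450 in Myb shRNA and 1521 to 2337 in scrambled cultures at day 3 and of 1098 to 1464 in Myb shRNA and 564 to 635 in scrambled cultures at day 9. Of these 3, Sparc alone passed, higher with Myb shRNA by 1.98 at day 3 and 1.56 at day 9, while Dcn differed by 0.00 and -0.55 and Acta2 by -0.22 and 0.58 at the same days.

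Of 6 goblet cell markers only Spdef and Itln1 were measured, with sums of 99.5 to 105 in Myb shRNA and 148 to 207 in scrambled cultures at day 3 and of 95.1 to 126 in Myb shRNA and 212 to 294 in scrambled cultures at day 9. Itln1 was detected on 0 of 3 day 3 Myb shRNA arrays. It was detected on 1 of 3 in day 3 scrambled and day 9 Myb shRNA cultures, and on 3 of 3 in day 9 scrambled cultures. Spdef, detected on every array, differed by -0.65 at day 3 and -0.48 at day 9. The epithelial markers Cdh1, Krt8 and Krt18 summed to 9385 to 12712 in Myb shRNA and 8352 to 9684 in scrambled cultures at day 3, which overlapped, and to 6456 to 7767 in Myb shRNA and 8995 to 9619 in scrambled cultures at day 9, which did not. Krt8 weighed most in the epithelial sum and alone of its 3 genes passed at day 9 (-0.48), while Cdh1 differed by 0.06 and Krt18 by -0.12. Apart from the epithelial sum at day 3, none of the 7 sums overlapped between the shRNAs at either day. The goblet sum among them rests in part on undetected levels. The part of these sums in the results was not tested.

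Some of the upstream regulators of multiciliogenesis were lower. Of 11 measured out of 18 listed, 4 fell with Myb shRNA at day 3 and none rose, where 11.2% of all genes fell, with a median of -0.16 beside 0.00 over all genes. Mcidas, the coregulator that starts the programme, averaged 6.61 ± 0.35 in Myb shRNA and 8.59 ± 0.71 in scrambled cultures at day 3 (SD, n = 3 each), a difference of -1.99 ± 0.33 (adjusted p = 0.00075). Ccno, a cyclin-like protein of centriole amplification, averaged 10.26 ± 0.25 and 12.09 ± 0.50 in the same groups, a difference of -1.83 ± 0.22 (adjusted p = 6.28e-05). Hes6, a Notch pathway inhibitor, fell by 0.76, and Ccdc78, a deuterosome protein that no day 3 Myb shRNA array detected, was at least 2.00-fold lower (adjusted p = 0.00044). At day 9, where 9.48% of all genes fell, 3 of the 11 did so, Hes6 by 1.49, Ccdc78 by 1.12 and Ulk4, a kinase-like gene that 1 of 3 Myb shRNA arrays detected, by 0.63 (adjusted p = 0.0431). The call for Ulk4 was lost in 8 of the 12 fits without a single array, with adjusted p up to 0.189 without day 9 scrambled replicate 3. With the replicate block 6 of the 11 fell at day 9, where 24.8% of all genes passed. The list's median at day 9 was -0.48, beside 0.05 over all genes.

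Mcidas and Ccno, like Foxn4, passed at day 3 and did not pass at day 9. At day 9 Mcidas averaged 8.30 ± 0.55 in Myb shRNA and 8.07 ± 0.20 in scrambled cultures, and Ccno 11.83 ± 0.24 and 11.55 ± 0.24 in the same groups, differences of 0.23 and 0.28 that did not pass (adjusted p = 0.715 and 0.464). The difference for Mcidas was -0.087 without day 9 Myb shRNA replicate 3. The interaction was 2.21 ± 0.46 for Mcidas (adjusted p = 0.0293) and 2.11 ± 0.31 for Ccno (adjusted p = 0.00579). These were the 2 regulators of the 11 that passed, where 1.65% of all genes did. Hes6 (-0.61, adjusted p = 0.00294) and Grhl2 (-0.67, adjusted p = 0.0177), a grainyhead factor of epithelia, passed with negative values once the arrays numbered 3 were left out. In that fit 1410 of all 9381 genes passed. Between the days Mcidas and Ccno rose in Myb shRNA cultures, by 1.69 and 1.57, while in scrambled cultures they differed by -0.52 (adjusted p = 0.299) and -0.54 (adjusted p = 0.113). For Mcidas the interaction did not pass in 6 of the 12 fits without a single array, at values of 2.07 to 2.31, with the highest adjusted p (0.0972) without day 3 Myb shRNA replicate 1. E2f4, E2f5, Tfdp1 and Tfdp2, the E2F and DP subunits that work with Mcidas, had shRNA differences from -0.23 to 0.16 at day 3 and from -0.51 to 0.26 at day 9, none of which passed. E2f5 at day 9 (-0.51, adjusted p = 0.0524) passed with the replicate block (adjusted p = 0.00775) and without the arrays numbered 3 (-0.47, adjusted p = 0.0215). Gmnc, Trp73, Cdc20b, Deup1, Plk4 and Fank1 were below the detection filter. Over the 12 arrays, the log2 level of Foxn4 correlated with that of Ccno at r = 0.92 and with that of Mcidas at r = 0.90, and after subtraction of each group's mean at 0.97 and 0.82. These values describe arrays that share the groups and the shift of replicate 3.

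**Figure D4:**
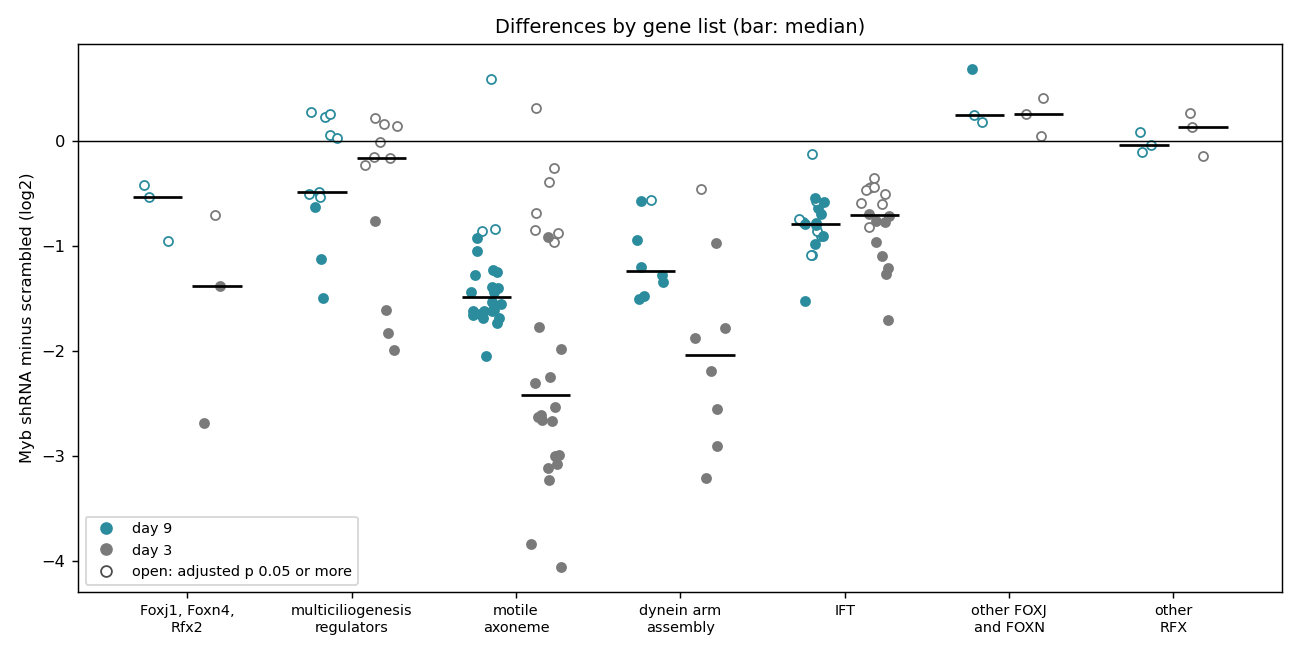
Myb shRNA minus scrambled shRNA on the log2 scale (vertical axis) at day 9 and day 3 for Foxj1, Foxn4 and Rfx2 and for the measured genes of 6 lists (horizontal axis), with IFT for intraflagellar transport. Each point is 1 gene, filled where its adjusted p is under 0.05 over all genes tested, and bars are medians. Motile axoneme and dynein assembly genes lie lower at day 3 than at day 9, with medians of -2.42 and -2.03 at day 3 and -1.49 and -1.24 at day 9. Some of these genes were not detected in day 3 Myb shRNA cultures. Rfx1, Rfxap and Rfxank lie between -0.14 and 0.27.

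Of 8 further genes listed with the RFX factors, Rfx1, Rfxap and Rfxank were measured, and only Rfx1 is itself an RFX factor. None of them passed by limma in any of the 6 contrasts, with or without the replicate block, nor at an unadjusted p under 0.05. The exception came from leaving out the arrays numbered 3, where Rfx1 was higher at day 3 (0.31 ± 0.10, adjusted p = 0.0269). Rfx1, a widely expressed X-box factor, differed by 0.27 ± 0.17 at day 3 and -0.10 ± 0.17 at day 9. Rfxap and Rfxank, partners of Rfx5 at MHC class II promoters, differed by -0.14 and 0.13 at day 3 and by -0.04 and 0.08 at day 9. Of 5 further FOXJ and FOXN genes, Foxj2, Foxj3 and Foxn3 were measured. Foxj2, a widely expressed forkhead factor, was higher with Myb shRNA at day 9, at 7.37 ± 0.09 against 6.68 ± 0.12 in scrambled cultures (SD, n = 3 each), a difference of 0.69 ± 0.15 (adjusted p = 0.00653). Of all genes, 6.65% were higher at day 9. At day 3 Foxj2 differed by 0.41 ± 0.15 (adjusted p = 0.0648, and 0.0184 with the replicate block). Foxj3 and Foxn3 did not pass, with differences between 0.05 and 0.26 at both days.

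Motile cilium genes, which Foxj1 and the RFX factors are known to serve, were mostly lower with Myb shRNA. Over all genes tested, 11.2% were lower at day 3 and 9.48% at day 9. Of 24 measured motile axoneme genes, out of 37 listed, 17 fell at day 3 and 21 at day 9, and none rose, with medians of -2.42 and -1.49. Without the arrays numbered 3, 19 fell at day 3 and 23 at day 9, and the heavy chain gene Dnah11 was higher at day 9 (0.51 ± 0.14, adjusted p = 0.0151). Of all 9381 genes, 3602 passed at day 3 and 2411 at day 9 in that fit, in either direction. The radial spoke gene Rsph9 fell by 2.53 ± 0.16 at day 3 and by 1.40 ± 0.16 at day 9, and the light chain gene Dynlrb2 by 3.08 ± 0.19 at day 3. Of 8 measured dynein arm assembly genes, out of 12 listed, 7 fell at day 3 and 7 at day 9. Among them Zmynd10 fell by 3.21 at day 3, where 2 of 3 Myb shRNA arrays detected it, and by 1.28 at day 9. Some genes of both lists, such as Ccdc103, were detected on no day 3 Myb shRNA array. The detection limit thus bounds the sizes and medians at day 3. Between the days, 21 of the 24 motile axoneme genes rose in Myb shRNA cultures and 20 in scrambled cultures, with medians of 2.33 and 1.39. In the same arms 9.26% and 9.55% of all genes rose.

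Intraflagellar transport genes, which build primary as well as motile cilia, had medians nearer 0. Of 18 measured out of 24 listed, 9 fell at day 3 and 12 at day 9, with medians of -0.70 and -0.79. With the replicate block, by which 36.2% and 24.8% of all genes passed, 16 fell at day 3 and 17 at day 9. Without the arrays numbered 3, 12 fell at day 3 and 17 at day 9, where 3602 and 2411 of all 9381 genes passed in either direction. Ift22 fell by 1.71 ± 0.16 at day 3, and Ift27 by 0.98 ± 0.13 at day 9. Between the days, 12 of the 18 rose in Myb shRNA cultures and 13 in scrambled cultures, where 9.26% and 9.55% of all genes rose. With the block all 18 rose in Myb shRNA cultures, where 2367 of all 9381 genes passed. The interaction was passed by 6 motile axoneme genes, all positive, such as Lrrc23, a radial spoke gene, at 2.43 ± 0.35 (adjusted p = 0.00538). Of all genes tested, 1.65% passed it, 0.746% with a positive value. No intraflagellar transport gene passed the interaction in limma, at a median of -0.02, beside 0.03 over all genes. At an unadjusted p under 0.05, 3 of the 18 did so, as did at least 1093 of all 9381 genes. Leaving out the arrays numbered 3, the interaction passed and was positive for 13 and negative for 3 motile axoneme genes, and positive for 1 and negative for 5 intraflagellar transport genes. In that fit 1410 of all 9381 genes passed the interaction.

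A list of 8 genes reported as RFX targets in mice or other animals was measured in full. Foxj1, the light intermediate chain gene Dync2li1 of the retrograde motor and Bbs4 of the Bardet-Biedl complex fell at day 3. At day 9 Dync2li1, Bbs4, Ift172 and the axonemal heavy chain gene Dnah9 fell, the last with adjusted p = 0.0468, lost in 8 of the 12 fits without a single array (up to adjusted p = 0.206 without day 9 scrambled replicate 3). In the fit without the block, 11.2% of all genes fell at day 3 and 9.48% at day 9. With the block 6 of the 8 fell at day 3 and 5 at day 9, where 36.2% and 24.8% of all genes passed. Dync2li1 differed by -0.69 ± 0.12 at both days (adjusted p = 0.00131 at day 9 and 0.000939 at day 3). Ift172 differed by -1.52 ± 0.28 at day 9 (adjusted p = 0.00226). Its day 3 value was -0.59 ± 0.28 (adjusted p = 0.151), and -0.35 (adjusted p = 0.00569) without the arrays numbered 3. The list's medians were -0.63 at day 9 and -0.64 at day 3, and none of the 8 passed the interaction in limma. At an unadjusted p under 0.05, 2 of the 8 did so, as did at least 1093 of all 9381 genes. Ift172 passed with a negative value (-1.18, adjusted p = 3.58e-05) without the arrays numbered 3.

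By correlation over the 12 arrays, no gene was among the 5 that followed more than 1 of the factors most closely. For Foxj1 they were Ccdc151 (r = 0.96), a docking factor of outer dynein arms, the dynein assembly gene Dnaaf1, Mlf1, the ciliary structural gene Mns1 and Acsl3, a fatty acid ligase, down to r = 0.95. For Foxn4 they were Mdm1 (r = 0.97), a centriole-associated protein, Egln3, a prolyl hydroxylase, Hyls1, a centriole protein needed for ciliation, Ppm1m and Trit1, down to r = 0.94. For Rfx2 they were Lca5 (r = 0.99), a ciliary protein, the kinase gene Mast3, Wdr60 of the retrograde motor, Abi2 and the transition zone gene Dzip1l, down to r = 0.99. With group means subtracted, the values were 0.66 to 0.84 for Foxj1, 0.48 to 0.92 for Foxn4 and 0.96 to 1.00 for Rfx2. Subtracting group means leaves in the shift of replicate 3, which was highest for Rfx2 in all 4 groups. By rank correlation 1, 3 and 2 of these 5 genes stayed among the 5 likest for Foxj1, Foxn4 and Rfx2. The factors themselves correlated at 0.86 for Foxj1 with Rfx2, 0.77 for Foxj1 with Foxn4 and 0.56 for Foxn4 with Rfx2, over the same 12 arrays.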

How the data were processed

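The deposited non-normalised table holds background-subtracted bead intensities with a detection p-value per probe and array. The authors' log2 table is a separate processed version. Per the submitters' processing notes, the tools were BeadStudio 3.0 and limma. The array's genome build is not given in the sources used here. Intensities were corrected and quantile normalised with neqc in limma 3.58.1 (R 4.3.3, offset 16), which takes the negative-control level from the detection p-values, since between 28.8% and 34.4% of signals per array were below 0. A probe was kept if 3 or more arrays gave it a detection p-value under 0.01, which held for 15526 of 45281. The brightest probe stood for each gene, 1733 kept probes without a gene symbol were left out, and 9381 genes remained. Their symbols were updated through the current gene tables.

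The 4 group means were fitted with lmFit and eBayes with a trend (8 residual degrees of freedom), and p-values were adjusted by Benjamini-Hochberg over all genes at a threshold of 0.05. The test was tried on simulated data first. The study's design text calls the replicates biological, and nothing says which arrays share an animal. In each comparison of 2 groups, arrays of the same replicate number deviated together: the lowest correlation of their deviations was 0.297 for the shRNAs at day 9, 0.150 for those at day 3, 0.107 for the days in Myb shRNA cultures and 0.267 for the days in scrambled cultures, so the number was also fitted as a block. Over all 4 groups the lowest was 0.0196, so for the interaction the block serves as an alternative setting only, in the closing section. Each array was left out in turn, and filter, offset, normalisation, probe choice, variance prior and array weights were varied. Bounds such as "at least 2.00-fold" compare the bright group's mean with the lowest detected level of each array of the dim group. The number of arrays limits the precision.

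Genes named in the text are the 4 transcription factors, every measured gene of the short lists, the genes of lowest p of the longer lists and the 5 best correlated genes per factor. Among the correlated genes, those known only by clone or number were left out. The factors and the lists were chosen with earlier results of these data known.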

Additional observations from a re-analysis of the deposited data

Results flagged for a closer look

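The shRNA difference at day 9 differed from that at day 3 for 3 of the named regulators by limma's test of the interaction. Over all genes, 1.65% passed this test. Foxn4 had an interaction of 2.15 ± 0.37 (SE, adjusted p = 0.0112), Ccno of 2.11 ± 0.31 (adjusted p = 0.00579) and Mcidas of 2.21 ± 0.46 (adjusted p = 0.0293). All 3 were lower with Myb shRNA at day 3 and did not pass at day 9, where Foxn4 did pass with array weights (-0.68) and without the arrays numbered 3 (-0.77).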

How the results depend on the processing

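The calls for Foxj1 and Foxn4 at day 3 and in Myb shRNA cultures between the days, for Foxn4 in the interaction and for all 3 genes over both days stayed past the threshold under every alternative that gave a value. Foxj1 and Foxn4 gave none when detection on all 12 arrays was required. With the replicate block, Rfx2 passed at day 3 (-0.71) and day 9 (-0.95) and Foxj1 in the interaction (0.97, where the numbers are not taken as pairs), and no other call for the 3 genes changed. The numbers of genes past the threshold with the block were 3400 at day 3, 2331 at day 9, 2367 between the days in Myb shRNA and 2817 in scrambled cultures, and 715 in the interaction, against 2134, 1513, 1566, 1601 and 155 without it. With array weights these numbers were 4439, 2616, 3450, 3564 and 1833, and 4477 over both days, against 2945 without weights. Without the arrays numbered 3, an alternative added after the data were seen, they were 3602, 2411, 2478, 3523 and 1410. Requiring detection on all 12 arrays left 80 in the interaction.

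With array weights Rfx2 passed at day 3 (-0.55) and day 9 (-1.07), Foxj1 (-0.59) and Foxn4 (-0.68) at day 9, and Foxj1 in the interaction (0.83). Without the arrays numbered 3, Rfx2 passed at day 3 (-0.53), at day 9 (-1.10) and in the interaction (-0.57), as did Foxj1 (-0.65) and Foxn4 (-0.77) at day 9. Rfx2 at day 9 also passed with an offset of 50 (-0.90), in the deposited log2 table (-0.90) and in a fit of the 2 groups alone (-0.95). The fall of Foxn4 in scrambled cultures did not pass with no filter, no variance trend or the 2 groups alone (-0.81 each), with cyclic loess (-0.72) or without the arrays numbered 3 (-0.31). The small difference of Mcidas at day 9 turned negative with array weights (-0.057) and without the arrays numbered 3 (-0.19), and with single arrays left out it ran from -0.087 to 0.44. Cyclic loess moved the share of calls that were higher at day 9 to 31.1% in place of 41.2%, and the share between the days in scrambled cultures to 73% in place of 56%. The cause was not tested for any of these.

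With single arrays left out, the difference at day 9 ran from -0.74 to -0.16 for Foxj1 and from -1.21 to -0.82 for Rfx2, the difference between the days in Myb shRNA cultures from 0.82 to 1.29 for Rfx2, and in scrambled cultures from -1.05 to -0.46 for Foxn4 and from 1.09 to 1.71 for Rfx2. The numbers of genes past the threshold ran from 949 to 1900 at day 9, from 1039 to 1978 and from 811 to 2750 between the days in Myb shRNA and scrambled cultures, and from 52 to 328 in the interaction. Levels near the detection limit bound what can be said of Foxj1 and Foxn4 in day 3 Myb shRNA cultures and of Rfx3 in all.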
